A study of Mus musculus with 11 samples.

Results

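The postsynaptic scaffolds and synaptic adhesion molecules described here are 43 genes of the 14974 in the expression table of the mouse anterior cingulate cortex (ACC). They were chosen by name and function, with earlier results of these data known: excitatory and inhibitory postsynaptic scaffolds, regulators of dendritic spines, neurexins, neuroligins and other adhesion genes that join the presynaptic and postsynaptic membranes. All 43 were found in the table, and all 43 were above the minimum mean of 0.1 FPKM used for testing. FPKM are counts of fragments divided by the length of the gene and by the depth of the library, so levels can be compared between genes per length. Bulk RNA-seq was made from the ACC of C57BL/6 WT mice (C57BL/6J in the methods of the study), with 1 library per mouse. Trained mice (6 libraries, 3 of females and 3 of males) had learned to press a lever for food while the number of presses needed for a reward was raised in steps. Untrained mice (5 libraries, 3 of females and 2 of males) were food-restricted too, spent the sessions in the same kind of chamber and were given the food without pressing. The tissue was dissected within the hour after the last session, and the authors left out a further untrained male for its low number of reads. Libraries are named below by their group and the number in their label: Trained 1, 2 and 3 came from females and Trained 12, 13 and 14 from males, while Untrained 5, 6 and 17 came from females and Untrained 10 and 16 from males.

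Excitatory synapses of the cortex sit mostly on dendritic spines, where layered scaffolds (MAGUK, SAPAP, Shank and Homer proteins) hold glutamate receptors opposite the release site and tie them to actin. Inhibitory synapses use gephyrin to hold glycine and GABA-A receptors. Presynaptic neurexins and LAR-type receptor phosphatases bind postsynaptic neuroligins, LRRTM, Slitrk and netrin-G ligand proteins across the cleft, and these pairs organise new synapses. The study stained PSD95 and gephyrin, the products of Dlg4 and Gphn, to mark excitatory and inhibitory postsynapses, so the comparison here asks whether the messenger RNA of such proteins differed between trained and untrained mice. In bulk tissue, fewer cells of a type and less RNA per cell cannot be told apart.

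Most of the 43 members were well expressed. Their mean over the 11 libraries ran from 2.08 FPKM (Homer3) to 306 FPKM (Dlg4), with a median of 41.1 FPKM, against a median of 7.78 FPKM over all genes tested. Of the members, 42 were above that median gene, 9 exceeded 100 FPKM, and 3 (Homer3, Lrrtm4 and Flrt3) were below 10 FPKM. The coefficient of variation over the 11 libraries was 8.21% in the median member, from 3.23% (Nlgn3) to 27.8% (Cadm2), against 11.6% in the median of all genes. The libraries were estimated to hold 17.7 to 27.0 M fragments in the Trained and 14.2 to 26.2 M in the Untrained group, which puts the least covered member (Homer3 in Untrained 17) at about 92 fragments. The markers of the labelled tissue were present. In all, 6 markers of cortical excitatory neurons summed to 886 to 959 FPKM in Trained and 883 to 1005 FPKM in Untrained libraries, and 6 markers of striatal neurons to 52.8 to 82.1 and 54.7 to 63.9 FPKM. Untrained 10 stood apart in the summed markers of the choroid plexus and meninges (174 FPKM, against 3.27 to 10.5 FPKM in Trained and 5.13 to 16.01 FPKM in the other Untrained libraries). Of this sum 164 FPKM was Ttr, and Kl was at 2.96 FPKM, against at most 0.712 FPKM in any other library. Dcn (5.09 FPKM) and Col1a1 (1.85 FPKM) did not stand apart, with 4.64 and 2.12 FPKM in Untrained 6. Several training differences below are given with and without Untrained 10.

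No member differed between the groups at an adjusted p under 0.05 (limma with Benjamini-Hochberg adjustment over 14936 genes; lowest adjusted p 0.537 among members and 0.334 among all genes, of which 0.0% passed). At an unadjusted p under 0.05, 5 members (11.6%) were lower in Trained libraries, against 4.2% of all genes, and no member was higher, against 4.13%. The 5 were Flrt3, Lrrtm3, Shank2, Dlg1 and Sipa1l1, of which 2 are adhesion proteins of the postsynaptic membrane and 3 are scaffold or spine proteins inside it. No member passed the thresholds the study used for this comparison, an unadjusted p under 0.01 with at least 1.5-fold, which 0.281% of all genes passed. In no member were the groups free of overlap, against 0.763% of all genes. In a two-sided exact permutation test, with 462 ways to draw 6 of the 11 libraries, 6 members had an unadjusted p under 0.05 (lowest 0.0087, adjusted p = 0.509), the 5 above and Gphn. The share of all genes under 0.05 in the permutation test was not counted, so this count has no background beside it.

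The differences were small in all 43 members. All 43 confidence intervals (95%) lay inside a 1.5-fold difference in either direction, 40 lay inside 1.3-fold (not Cadm2, Slitrk3 and Flrt3) and 32 inside 1.2-fold. The mean log2 value was lower in Trained libraries in 34 of 43 members (79.1%), against 50.9% of all genes, with a median log2 difference of -0.042 for the members and -0.0029 for all genes. Without Untrained 10 the mean was lower in 25 of 43 members and the median log2 difference was -0.016. No share or median of all genes is given without that library, so these values have no background beside them.

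**Figure D1:**
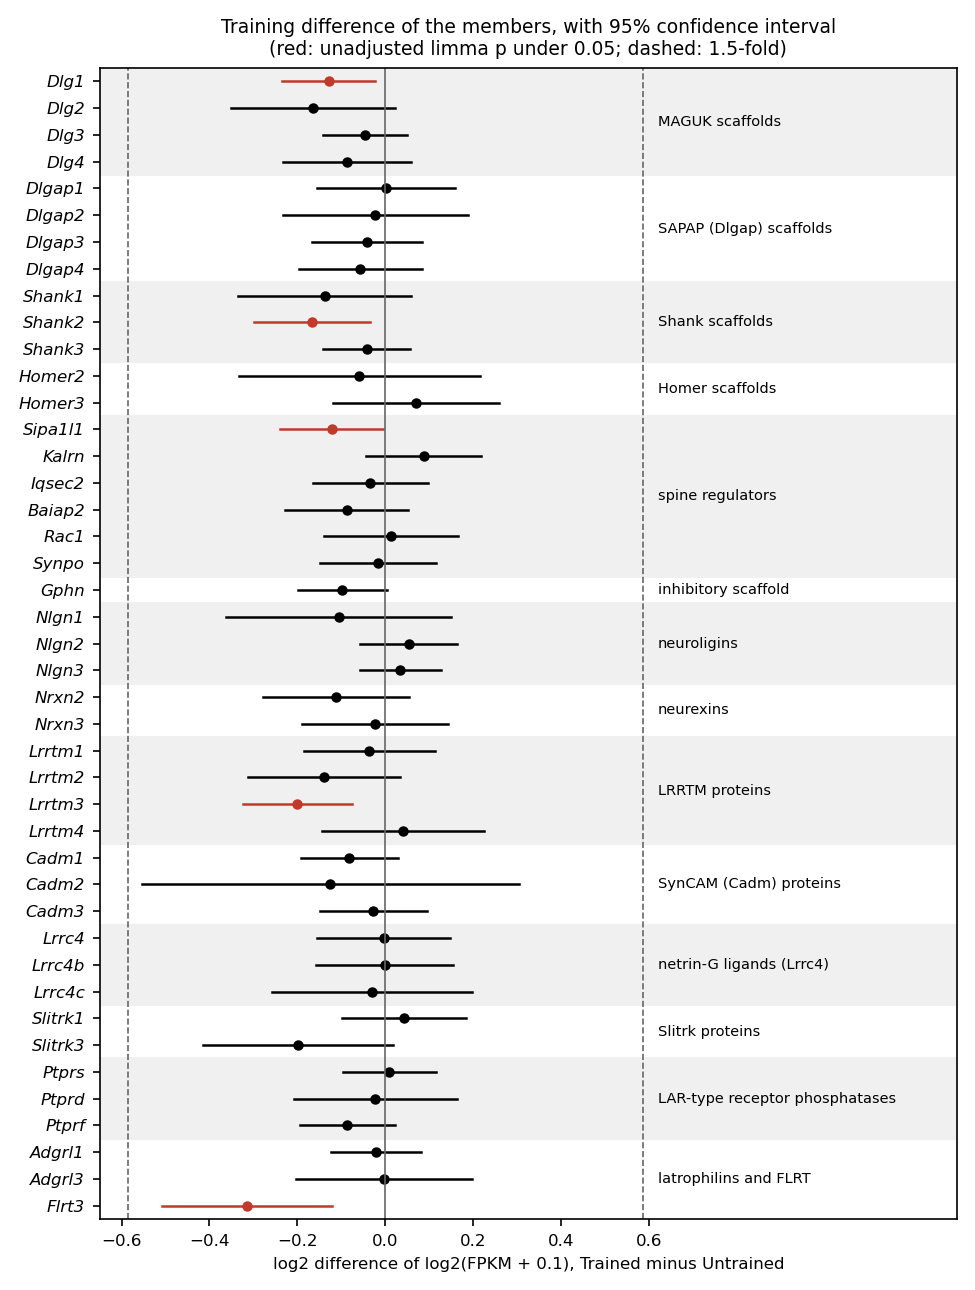
Log2 difference of log2(FPKM + 0.1), Trained minus Untrained, for each of the 43 members (y axis, grouped by role), with its 95% confidence interval from limma (6 Trained, 5 Untrained libraries). The 5 members with an unadjusted p under 0.05 are in red, all on the lower side, and every interval lies between the dashed lines at 1.5-fold.

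Of the MAGUK scaffolds, which bind the tails of NMDA receptors and of AMPA receptor partners, all 4 had lower means in Trained libraries and 1 passed the unadjusted threshold. Dlg1, which encodes SAP97, ranged from 35.9 to 39.4 FPKM in Trained libraries, with a median of 37.4 FPKM, against 39.04, 37.97, 43.6, 42.2 and 42.6 FPKM in Untrained 5, 6, 10, 16 and 17. The 3 highest libraries were Untrained 10, 16 and 17, while Untrained 5 and 6 lay among the Trained ones. Means were 37.5 ± 1.25 FPKM in Trained and 41.1 ± 2.44 FPKM in Untrained libraries (SD, 6 and 5 libraries), and the log2 difference was -0.13 ± 0.0492 (SE; limma, unadjusted p = 0.02, adjusted p = 0.562). Dlg1 lies on chromosome 16 (31663443 to 31875129, mm10). Its difference was -0.18 (unadjusted p = 0.043) within libraries 10 to 17 and -0.051 (unadjusted p = 0.265) within libraries 1 to 6, and -0.12 without Untrained 17 (unadjusted p = 0.052). Dlg4, which encodes PSD95, the most abundant member, ranged from 282 to 315 FPKM in Trained libraries, with a median of 296 FPKM, against 312, 295, 380.2, 292 and 306 FPKM in Untrained 5, 6, 10, 16 and 17. Untrained 10 was far above all the others, and the remaining 4 Untrained libraries lay within the Trained range. Dlg4 averaged 297 ± 12.8 FPKM in Trained and 317 ± 36.2 FPKM in Untrained libraries, a log2 difference of -0.088 ± 0.0674 (SE; limma, unadjusted p = 0.215, adjusted p = 0.708). Its interval, -0.23 to 0.057, was inside 1.2-fold, and without Untrained 10 the difference was -0.021. Dlg2 (PSD93) and Dlg3 (SAP102) had log2 differences of -0.16 and -0.046, with unadjusted p of 0.08 and 0.315.

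The next layers of the scaffold are the SAPAP proteins, which bind MAGUKs, the Shank proteins, which bind SAPAPs, and the Homer proteins, which bind Shanks and metabotropic glutamate receptors. None of the 4 SAPAP genes passed the unadjusted threshold, with log2 differences between -0.057 (Dlgap4) and 0.002 (Dlgap1). Shank2 ranged from 32.2 to 41.04 FPKM in Trained libraries, with a median of 37.5 FPKM, against 40.1, 38.6, 41.3, 44.03 and 42.9 FPKM in Untrained 5, 6, 10, 16 and 17. The lowest library was Trained 3, and Trained 13 was the only Trained library above Untrained 5 and 6. Shank2 averaged 36.9 ± 2.94 FPKM in Trained and 41.4 ± 2.19 FPKM in Untrained libraries, a log2 difference of -0.17 ± 0.0614 (SE; limma, unadjusted p = 0.017, adjusted p = 0.56). The gene lies on chromosome 7 (144001928 to 144424494, mm10). The difference was -0.14 (unadjusted p = 0.098) within libraries 10 to 17 and -0.17 (unadjusted p = 0.034) within libraries 1 to 6. Shank3, whose loss causes a human autism syndrome, averaged 42.3 ± 1.63 FPKM in Trained and 43.5 ± 1.79 FPKM in Untrained libraries, a log2 difference of -0.043 ± 0.0456 (SE; limma, unadjusted p = 0.368, adjusted p = 0.787). Shank1 ranged from 115 to 125 FPKM in Trained libraries, with a median of 119 FPKM, against 125, 113, 176, 135 and 119.6 FPKM in Untrained 5, 6, 10, 16 and 17. Untrained 10 was again far above the others, and the remaining libraries of both groups overlapped. The log2 difference of Shank1 was -0.14 ± 0.0913 (SE; limma, unadjusted p = 0.155, adjusted p = 0.67), and -0.033 without Untrained 10 (unadjusted p = 0.516). Homer2 and Homer3 had log2 differences of -0.059 and 0.07. Homer3 shares 25.4% of its exon bases with Ddx49 on the opposite strand, and no source used here says whether reads were counted by strand.

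Spine regulators act on the actin of the spine head. Of 6, 4 had lower and 2 higher means in Trained libraries, and 1 passed the unadjusted threshold. Sipa1l1 encodes a GTPase-activating protein for Rap, also called SPAR, that enlarges spines. Sipa1l1 ranged from 68.2 to 79.5 FPKM in Trained libraries, with a median of 76.2 FPKM, against 79.4, 75.5, 84.3, 87.7 and 81.4 FPKM in Untrained 5, 6, 10, 16 and 17. The lowest were Trained 3 and 1, the highest Untrained 16 and 10, and the groups overlapped widely between them. Sipa1l1 averaged 75.1 ± 4.35 FPKM in Trained and 81.7 ± 4.67 FPKM in Untrained libraries, a log2 difference of -0.12 ± 0.0543 (SE; limma, unadjusted p = 0.042, adjusted p = 0.587), and lies on chromosome 12 (82169320 to 82451786, mm10). It no longer passed the unadjusted threshold when any of Trained 1, 2 and 3 or Untrained 10, 16 and 17 was left out. Rac1, the small GTPase that drives branched actin, ranged from 103 to 122 FPKM in Trained libraries, with a median of 119 FPKM, against 119, 115, 134, 102 and 108 FPKM in Untrained 5, 6, 10, 16 and 17. Both groups covered much the same range. Rac1 averaged 116 ± 7.76 FPKM in Trained and 115 ± 12.3 FPKM in Untrained libraries, a log2 difference of 0.012 ± 0.0709 (SE; limma, unadjusted p = 0.865, adjusted p = 0.976) with an interval of -0.14 to 0.16. Rac1 shares 51.4% of its exon bases with Daglb on the opposite strand. Kalrn, an exchange factor that activates Rac1, had the highest log2 difference of the 43 members, 0.087 ± 0.0610 (SE; limma, unadjusted p = 0.176, adjusted p = 0.682). Within libraries 10 to 17 it was 0.17 (unadjusted p = 0.048) and within libraries 1 to 6 0.011 (unadjusted p = 0.812). Baiap2, an adaptor between Rac1 and actin regulators, had a log2 difference of -0.088 ± 0.0648 (SE; limma, unadjusted p = 0.196, adjusted p = 0.699). Its lowest library was Untrained 10, and without that library the difference was -0.14 (unadjusted p = 0.014). Iqsec2, an exchange factor for the GTPase ARF6, and Synpo, a protein of the spine apparatus, had log2 differences of -0.034 and -0.017.

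Gphn encodes gephyrin, the scaffold of inhibitory postsynapses and the only inhibitory scaffold among the members. Gphn ranged from 18.4 to 19.9 FPKM in Trained libraries, with a median of 19.1 FPKM, against 19.3, 21.1, 21.2, 19.8 and 21.1 FPKM in Untrained 5, 6, 10, 16 and 17. Untrained 5 and 16 lay within the Trained range, and the other 3 Untrained libraries were above all Trained ones. Gphn averaged 19.1 ± 0.589 FPKM in Trained and 20.5 ± 0.870 FPKM in Untrained libraries, a log2 difference of -0.10 ± 0.0470 (SE; limma, unadjusted p = 0.056, adjusted p = 0.601). By the permutation test the difference had a lower p (exact permutation test, two-sided, p = 0.019, adjusted over all genes p = 0.534). The FPKM ratio of Dlg4 to Gphn, in which the scaling of a library cancels, is a description and was not tested. It averaged 15.5 ± 0.345 in Trained (15.1 to 15.9) and 15.5 ± 1.58 in Untrained libraries (13.99 to 17.9). The highest ratio was in Untrained 10, and without it the Untrained mean was 14.9 ± 0.908. Untrained 6, 16 and 17 (13.99, 14.8 and 14.5) lay below all Trained libraries, and Untrained 5 and 10 (16.1 and 17.9) above them. The spread of the ratio was thus larger among Untrained than among Trained libraries. The means were close because Untrained libraries lay on both sides of the Trained range. The log2 difference was 0.011 with all libraries and 0.065 without Untrained 10. The promoter window of Gphn, 300 bases around its start in RefSeq (GRCm38.p6), is shown because it holds a match to the motif of EGR factors, a family of activity-induced transcription factors. The capitals mark the match to GCGNGGGCG, here on the reverse strand.
Gphn, chr12:78226405-78226704, plus strand: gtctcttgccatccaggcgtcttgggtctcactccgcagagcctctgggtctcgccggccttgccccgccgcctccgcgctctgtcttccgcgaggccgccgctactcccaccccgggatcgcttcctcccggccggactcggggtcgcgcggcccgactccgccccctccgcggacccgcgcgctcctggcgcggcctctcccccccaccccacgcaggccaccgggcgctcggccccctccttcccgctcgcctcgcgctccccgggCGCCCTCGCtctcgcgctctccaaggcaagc

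Neuroligins are postsynaptic partners of neurexins, with Nlgn1 known mainly from excitatory, Nlgn2 from inhibitory and Nlgn3 from both kinds of synapse. None of the 3 passed the unadjusted threshold. Nlgn1 ranged from 13.6 to 18.8 FPKM in Trained libraries, with a median of 16.1 FPKM, against 15.03, 14.1, 21.7, 17.7 and 18.6 FPKM in Untrained 5, 6, 10, 16 and 17. The lowest were Trained 1, 3 and Untrained 6 and the highest Untrained 10, with both groups spread over the same range. The log2 difference of Nlgn1 was -0.11 ± 0.119 (SE; limma, unadjusted p = 0.388, adjusted p = 0.799), and -0.023 without Untrained 10 (unadjusted p = 0.839). Nlgn2 ranged from 78.02 to 82.9 FPKM in Trained libraries, with a median of 81.6 FPKM, against 81.9, 76.96, 87.1, 72.6 and 74.1 FPKM in Untrained 5, 6, 10, 16 and 17. The Trained libraries lay close together inside the Untrained range. The log2 difference was 0.053 ± 0.0513 (SE; limma, unadjusted p = 0.318, adjusted p = 0.765), and 0.091 without Untrained 10 (unadjusted p = 0.0503). Nlgn3 ranged from 28.2 to 31.5 FPKM in Trained libraries, with a median of 29.6 FPKM, against 28.8, 29.5, 28.9, 28.04 and 29.5 FPKM in Untrained 5, 6, 10, 16 and 17. Only Trained 2, 3 and 13 exceeded the highest Untrained library, and the whole range over 11 libraries was narrow. The log2 difference was 0.034 ± 0.0430 (SE; limma, unadjusted p = 0.44, adjusted p = 0.826). Nlgn3 shares 41.2% of its exon bases with the transcript Gm21986 on the same strand. The neurexins Nrxn2 and Nrxn3, the presynaptic partners, had log2 differences of -0.11 and -0.024, with unadjusted p of 0.166 and 0.763. Without Untrained 10 they were -0.027 and 0.040.

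LRRTM proteins are leucine-rich repeat proteins of the postsynaptic membrane that bind neurexins or heparan sulfate proteoglycans. Lrrtm3 ranged from 15.9 to 18.5 FPKM in Trained libraries, with a median of 16.1 FPKM, against 18.3, 20.01, 18.6, 17.6 and 20.3 FPKM in Untrained 5, 6, 10, 16 and 17. Only Trained 2 lay within the Untrained range, and the other 5 Trained libraries were below all 5 Untrained ones. Lrrtm3 averaged 16.5 ± 0.994 FPKM in Trained and 18.95 ± 1.14 FPKM in Untrained libraries, and its log2 difference was -0.20 ± 0.0578 (SE; limma, unadjusted p = 0.0041, adjusted p = 0.537). By its log2 difference Lrrtm3 was 12.9% lower in Trained libraries. By permutation it had the lowest p of the members (exact permutation test, two-sided, p = 0.0087, adjusted over all genes p = 0.509). The difference was -0.23 (unadjusted p = 0.026) within libraries 10 to 17 and -0.18 (unadjusted p = 0.047) within libraries 1 to 6. Without any single library it stayed between -0.23 and -0.17, with an unadjusted p under 0.05 each time. The other 3 genes of the family had log2 differences of -0.036 (Lrrtm1), -0.14 (Lrrtm2) and 0.041 (Lrrtm4), none past the unadjusted threshold. Whether Lrrtm3 differed from its relatives was not tested.

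Latrophilins (Adgrl1, Adgrl3) are adhesion receptors of the synapse, and Flrt3 is a postsynaptic ligand of theirs with leucine-rich repeats. Flrt3 ranged from 6.53 to 8.42 FPKM in Trained libraries, with a median of 6.97 FPKM, against 7.76, 7.97, 10.3, 9.16 and 9.62 FPKM in Untrained 5, 6, 10, 16 and 17. The highest Trained library, Trained 14, exceeded Untrained 5 and 6, and the other 5 Trained libraries were below all Untrained ones. Flrt3 averaged 7.17 ± 0.701 FPKM in Trained and 8.96 ± 1.08 FPKM in Untrained libraries, with a log2 difference of -0.32 ± 0.0897 (SE; limma, unadjusted p = 0.0036, adjusted p = 0.537), the largest of the 43 members in either direction (exact permutation test, two-sided, p = 0.013, adjusted over all genes p = 0.533). By its log2 difference Flrt3 was 19.6% lower in Trained libraries. Its interval was -0.51 to -0.12. The difference was -0.37 (unadjusted p = 0.01) within libraries 10 to 17 and -0.20 (unadjusted p = 0.024) within libraries 1 to 6, and -0.26 without Untrained 10 (unadjusted p = 0.011). Left out in turn, each of the 11 libraries gave a difference between -0.36 and -0.26 with an unadjusted p under 0.05. Adgrl1 and Adgrl3 had log2 differences of -0.021 and -0.0032, with unadjusted p of 0.663 and 0.973.

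Flrt3 lies on chromosome 2 (140650914 to 140671469, mm10), and Lrrtm3 on chromosome 10 (63928472 to 64090277, mm10), both on the minus strand. Their promoter windows (RefSeq, GRCm38.p6, 5′ to 3′ on the strand of the gene) are shown because these were the members with an unadjusted p under 0.01.
Flrt3, chr2:140671427-140671726, minus strand: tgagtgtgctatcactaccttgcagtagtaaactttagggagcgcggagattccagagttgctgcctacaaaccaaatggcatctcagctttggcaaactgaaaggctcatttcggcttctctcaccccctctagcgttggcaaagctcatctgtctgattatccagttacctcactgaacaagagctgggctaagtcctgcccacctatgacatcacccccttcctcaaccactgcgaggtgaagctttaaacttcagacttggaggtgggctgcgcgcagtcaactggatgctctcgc
Lrrtm3, chr10:64090206-64090505, minus strand: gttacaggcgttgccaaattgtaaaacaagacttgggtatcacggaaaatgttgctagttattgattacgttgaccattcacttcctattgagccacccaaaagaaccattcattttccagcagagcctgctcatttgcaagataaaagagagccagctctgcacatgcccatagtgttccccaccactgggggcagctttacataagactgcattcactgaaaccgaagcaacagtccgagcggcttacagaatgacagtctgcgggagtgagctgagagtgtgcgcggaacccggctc
Neither window holds the letters of the CRE (TGACGTCA), AP-1 (TGANTCA) or EGR (GCGNGGGCG) motif on either strand, so no capitals stand in them. Of the 43 members, 33 had at least 1 such window, 52 in all. The CRE motif was in 1 of the 52 (Ptprs), against 1.79% of 32851 windows of all genes, and the AP-1 motif in 3 (Cadm3, Lrrc4c and Nrxn3), against 7.81%. The EGR motif was in 8 of the 52, against 5.55%, those of Baiap2, Dlgap4, Gphn, Homer2, Homer3, Iqsec2, Ptprf and Shank3. A match is a stretch of letters and not a measured binding site.

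Of the 11 other adhesion members none passed the unadjusted threshold. SynCAM proteins are immunoglobulin adhesion molecules found on both sides of the cleft, and Cadm1, Cadm2 and Cadm3 had log2 differences of -0.082, -0.13 and -0.027. Cadm2 had the widest interval of all members, -0.55 to 0.30, and its level ran from 19.4 to 43.1 FPKM over the 11 libraries. Without Untrained 10 its difference was 0.016 (unadjusted p = 0.932). Lrrc4, Lrrc4b and Lrrc4c, the netrin-G ligands of the postsynaptic membrane, differed by -0.0036, -0.0013 and -0.03, and by 0.073, 0.075 and 0.098 without Untrained 10. Slitrk1 and Slitrk3, ligands of the LAR-type phosphatases, of which Slitrk3 is known from inhibitory synapses, differed by 0.042 and -0.20. The unadjusted p of Slitrk3 was 0.07, and that of Slitrk1 0.528. Ptprs, Ptprd and Ptprf, the LAR-type receptor phosphatases of the axon terminal, differed by 0.0091, -0.023 and -0.087.

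**Figure D2:**
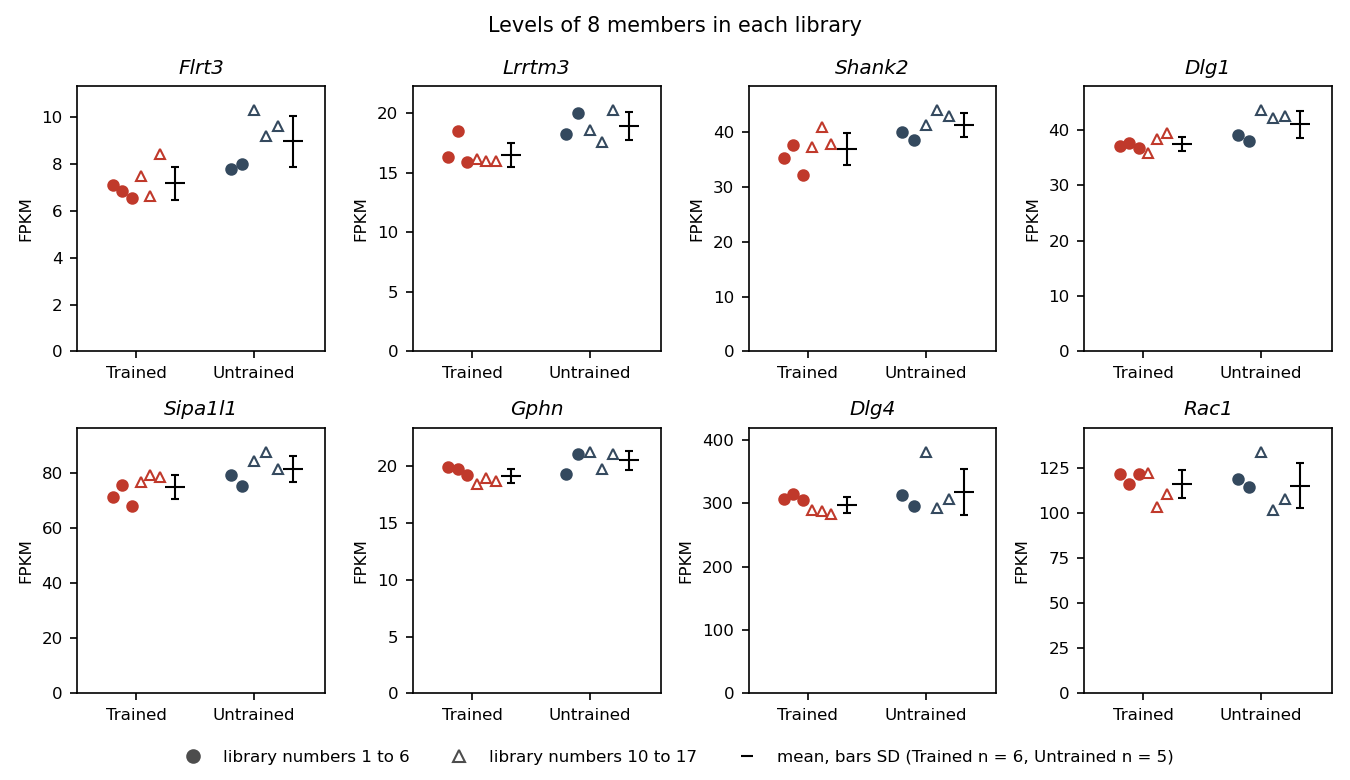
FPKM of 8 members (y axis, from 0) in each library, with Trained to the left of Untrained. Circles are libraries numbered 1 to 6 and triangles those numbered 10 to 17, and the bar is the mean with SD (6 Trained, 5 Untrained). The groups overlap in each panel, and in Dlg4 and Rac1 the highest point is Untrained 10.

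Genes of the same pathways outside the 43 were counted in the same way. Of 57 other postsynaptic density and spine genes measured (59 listed), 4 were lower in Trained libraries at an unadjusted p under 0.05 (7.02%, among them Tanc1, Shisa7 and Sipa1l3) and none higher, against 4.2% and 4.13% of all genes. Of 57 other synaptic adhesion genes measured (60 listed), 4 were lower (7.02%; Mdga1, Lrrn3, Slitrk5 and Cbln4) and 1 was higher (Ephb3). Medians of the log2 difference were -0.062 and -0.027, and no gene of either list had an adjusted p under 0.05. Mdga1, which binds neuroligins and blocks their access to neurexins, averaged 1.59 ± 0.396 FPKM in Trained and 2.20 ± 0.147 FPKM in Untrained libraries. Its log2 difference was -0.47 ± 0.144 (SE; limma, unadjusted p = 0.0062, adjusted p = 0.537), and the Trained range of 1.21 to 2.15 FPKM overlapped the Untrained range of 2.05 to 2.40 FPKM. Lrrn3, a leucine-rich repeat membrane protein, averaged 18.99 ± 0.966 FPKM in Trained and 21.4 ± 1.37 FPKM in Untrained libraries (log2 difference -0.17, unadjusted p = 0.0098).

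The training difference was next compared between the sexes, as an interaction of sex and training. The only member with an unadjusted p under 0.05 was Shank1 (2.33% of members, against 4.1% of all genes), and its adjusted p was 0.959. The difference of Shank1 in males minus that in females was -0.32 on the log2 scale (unadjusted p = 0.030). Without Untrained 10, at 176 FPKM, it was -0.13. That leaves Untrained 16 (135 FPKM) as the only untrained male, so this fit cannot show whether the difference rested on Untrained 10.

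Untrained 10 carried more of these transcripts than any other library. It was the highest of the 11 libraries in 28 of 43 members (65.1%), against 21.3% of all genes, and the median member lay 0.19 above its own mean on the log2 scale, against 0.0099 for the median of all genes. In the other 10 libraries the median member lay between -0.087 (Trained 3) and 0.030 (Trained 12). Trained 3 was the lowest library in 9 members, among them Flrt3, Lrrtm3, Shank2 and Sipa1l1. Untrained 6 was also lowest in 9. The excess in Untrained 10 was largest in Cadm2 (1.59 times the mean of the other 10 libraries), Lrrc4c (1.496 times), Shank1 (1.45 times), Nrxn2 (1.36 times) and Nlgn1 (1.34 times). Lrrc4c, which binds netrin-G on incoming axons, was at 58.9 FPKM in Untrained 10, against 37.9 to 43.9 FPKM in Trained and 37.3 to 38.2 FPKM in the other Untrained libraries. The ratio was below 1 in 6 members: Baiap2 (0.871), Ptprs (0.964), Lrrtm1 (0.982), Nlgn3 (0.984), Homer3 (0.996) and Ptprd (0.999). Beside the markers of choroid plexus and meninges given above, Untrained 10 had the highest sum of the 11 libraries for the marker lists of cortical excitatory neurons (1005 FPKM), astrocytes (288 FPKM), microglia (97.9 FPKM) and endothelium and mural cells (67.3 FPKM). Single markers did not all follow these sums. Untrained 10 was highest in 4 of 6 excitatory and 3 of 6 astrocyte markers. It was highest in 2 of 5 microglial and 4 of 5 endothelial and mural markers. Slc17a7 (743 FPKM) lay inside the range of the other libraries. The astrocyte markers Aldh1l1 (17.1 FPKM) and Gjb6 and the microglial marker Csf1r (22.75 FPKM) were lowest in Untrained 10. P2ry12, of the microglial list, was at 20.1 FPKM there, against at most 12.8 FPKM elsewhere. The part of these markers in the member values was not tested.

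**Figure D3:**
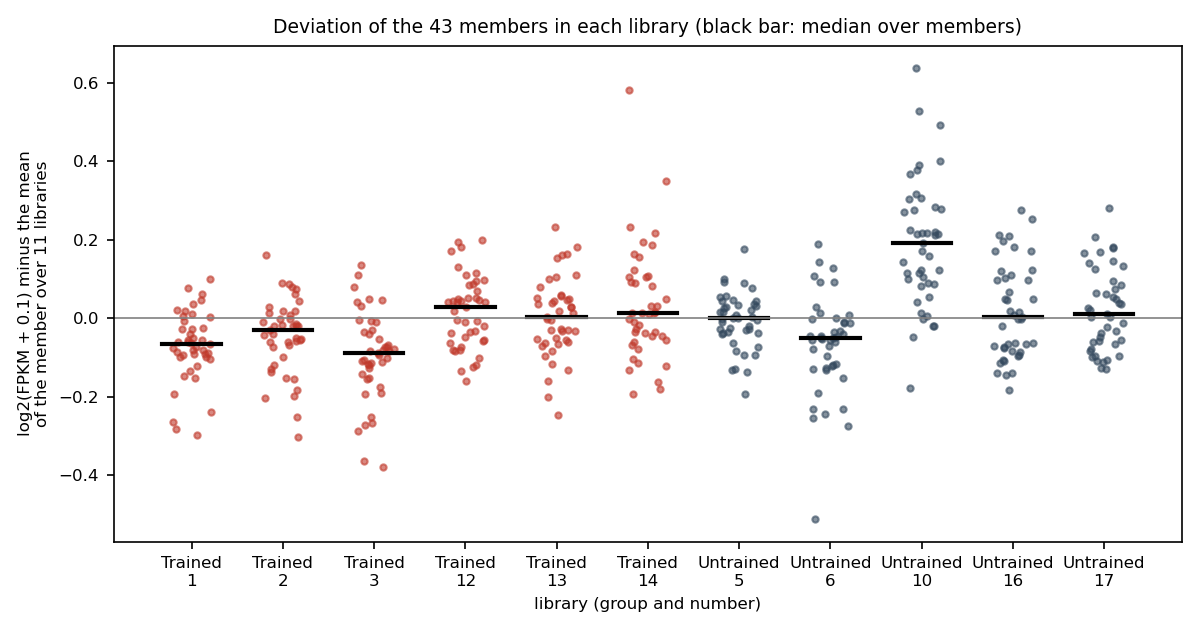
Deviation of each of the 43 members (points) from its own mean over the 11 libraries, on the log2(FPKM + 0.1) scale, with Trained libraries to the left of Untrained ones and the black bar at the median over members. The bar of Untrained 10 stands at 0.19, and those of the other libraries between -0.087 and 0.030.

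With training held in the fit, 5 members were higher in males than in females at an adjusted p under 0.05 (11.6%, against 1.19% of all genes) and none was lower (0.937%). They were Dlgap2, Slitrk3, Cadm2, Nlgn1 and Homer2, with log2 differences of 0.29 (adjusted p = 0.034), 0.30 (adjusted p = 0.037), 0.57 (adjusted p = 0.044), 0.34 (adjusted p = 0.046) and 0.36 (adjusted p = 0.049). Sex nearly coincided with the numbers in the library labels: all 5 male libraries are numbered 10 to 17, and of the 6 female ones only Untrained 17 is. Untrained 17 lay above all 5 other females in 22 of 43 members, against 30.7% of all genes. With the number range added to the fit, no member differed by sex at an adjusted p under 0.05. No source used here says what the numbers stand for.

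Compared by number range in place of sex, a comparison added after the data had been seen, 8 members were higher in libraries 10 to 17 than in libraries 1 to 6 at an adjusted p under 0.05 (18.6%, against 6.56% of all genes), and none was lower (2.95%). Nlgn1 averaged 18.7 ± 1.56 FPKM in libraries 10 to 17 and 14.3 ± 0.631 FPKM in libraries 1 to 6 (SD, 6 and 5 libraries), a log2 difference of 0.38 ± 0.0590 (SE; limma, adjusted p = 0.0041). Cadm2 averaged 34.01 ± 6.75 FPKM in libraries 10 to 17 and 22.03 ± 1.83 FPKM in libraries 1 to 6, a log2 difference of 0.60 ± 0.117 (SE; limma, adjusted p = 0.0097). Homer2, which links Shanks to metabotropic glutamate receptors, averaged 11.4 ± 1.05 FPKM in libraries 10 to 17 and 8.76 ± 0.756 FPKM in libraries 1 to 6, a log2 difference of 0.37 ± 0.0778 (SE; limma, adjusted p = 0.013). In these 3 genes each library numbered 10 to 17, Untrained 17 included, was above each library numbered 1 to 6. The other 5 were Dlgap2, Adgrl3, Ptprd, Dlg2 and Slitrk3, with log2 differences of 0.31, 0.27, 0.25, 0.25 and 0.28. Without overlap between the ranges were 8 members (Dlgap2, Homer2, Nlgn1, Nrxn3, Lrrtm4, Cadm2, Ptprd and Adgrl3), against 4.89% of all genes. With sex added to the fit no member passed the adjusted threshold, while the log2 differences by number range of the 8 members called ran from 0.082 (Slitrk3) to 0.40 (Cadm2). Nlgn1 was at 0.33, Ptprd at 0.28 and Dlg2 at 0.24, each within 0.05 of its value without sex in the fit. With both in the fit, the log2 difference by sex was 0.053 for Nlgn1, the lowest of the 5 members called by sex, and 0.23 for Cadm2, the highest. Untrained 17 is the only library that sets sex apart from number range, and the calls lost with both in the fit do not show which of them the members moved with.

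The members that differed by number range were mostly long genes. Of 13 members that span over 400 kb from start to end, 6 were called (46.2%), with a median log2 difference of 0.21. Of 17 members of 50 to 400 kb 1 was called (Homer2, 5.88%, median 0.039), and of 13 under 50 kb 1 (Slitrk3, 7.69%, median 0.0086). Over all genes, 37.1% of 321 genes over 400 kb were called, 14.2% of 3956 genes of 50 to 400 kb and 2.61% of 10061 genes under 50 kb. Cadm2 spans 966 kb and Nlgn1 906 kb. Across the 43 members the log2 difference by number range had a Pearson r of 0.50 and a Spearman rho of 0.48 with the logarithm of the span, against 0.25 and 0.32 over 14338 genes. These are descriptions across genes that share the same 11 libraries, without a test. The training difference of the members had a Pearson r of -0.022 and a Spearman rho of -0.098 with span, against -0.20 and -0.25 over all 14338 genes. Moving with the number range were all 6 of 6 oligodendrocyte markers, lower in libraries 10 to 17 at an adjusted p under 0.05. Their sum was 275 to 475 FPKM in libraries 10 to 17, against 501 to 1036 FPKM in libraries 1 to 6. The highest sum was in Trained 3, and the next, in Trained 1, was 729 FPKM. The summed striatal markers did not overlap either. They were at 52.8 to 61.9 FPKM in libraries 10 to 17 and 63.0 to 82.1 FPKM in libraries 1 to 6, highest in Trained 3. Of these 6 markers, 1 was lower and 1 higher in libraries 10 to 17 at an adjusted p under 0.05. The estimated depth was 14.2 to 21.9 M fragments in libraries 10 to 17 and 20.7 to 27.0 M in libraries 1 to 6. The part of these markers or of depth in the member differences was not tested.

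**Figure D4:**
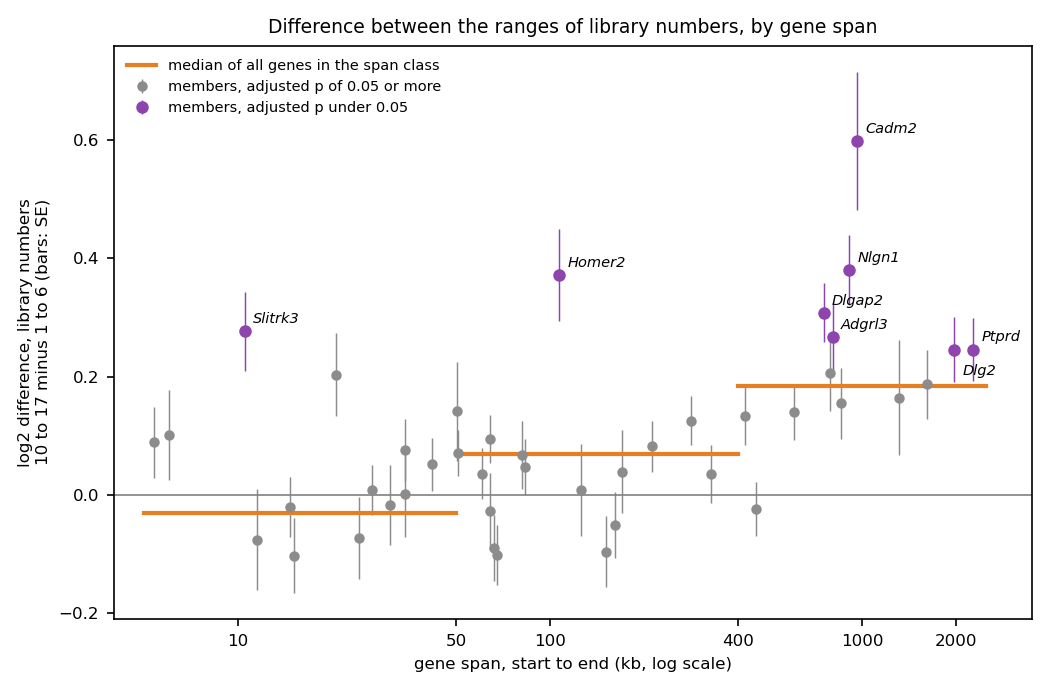
Log2 difference of each member between libraries numbered 10 to 17 and 1 to 6, with training in the fit (y axis, bars SE), against the span of its gene from start to end (x axis, kb, log scale). The 8 members at an adjusted p under 0.05 are named, 6 of them over 400 kb, and the orange lines are the medians of all genes under 50 kb, from 50 to 400 kb and over 400 kb.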

How the data were processed

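ACC tissue of 6 Trained and 5 Untrained mice was sequenced, with 1 library per mouse, after polyadenylated RNA selection with a stranded kit. Per the labels, the authors used Trimmomatic 0.38 for trimming, Bowtie2 2.3.5.1 (which does not split reads over splice sites) for alignment to mm10, and featureCounts (Subread 1.6.3) for counting. The authors deposited FPKM values for 14974 genes in each library. No source used here gives the annotation, the strand setting or how FPKM were computed, and 23 names that a spreadsheet had turned into dates were kept as unnamed genes. A second deposited table, the edgeR 3.30.3 comparison of the authors with a log2 fold change, p-value and false discovery rate per gene, was not used.

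The 14936 genes averaging 0.1 FPKM or more were kept, and log2(FPKM + 0.1) was compared with limma 3.58.1 (mean-variance trend) in R 4.3.3, with Benjamini-Hochberg adjustment over all genes tested. Fold changes on this scale understate the change of low genes. The exact permutation test took each of the 462 ways to draw 6 of the 11 libraries (two-sided, smallest p possible 0.0022), with adjustment over the same genes. Sex by training was fitted as an interaction, and sex and the range of library numbers each with training in the fit. FPKM are not counts, so no count model was run. Fragments per library were estimated from the step that a fragment makes in low values, of which 44.1% to 54.4% lay within 0.1 of a whole fragment (20% by chance), so these depths are approximate and no reads were recovered. Coordinates, spans and overlaps come from GENCODE M21 (mm10), in which 14402 names (96.2%) were found, and promoter windows from RefSeq (GRCm38.p6). The script for limma was tested on simulated data.

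The members and lists were chosen with earlier results of these data known. Of the related genes counted as lower, 1 is not named here. Values per library are given for members with an unadjusted p under 0.05 for training or its interaction with sex, for Dlg4, Gphn, Rac1 and the neuroligins, and of the related genes for those with an unadjusted p under 0.01. The alternatives were a pseudocount of 0.01 or 1, no filter or one at 1 FPKM, scaling by quantile normalization, median centring or TPM, sex or number range as a covariate, robust variance, array weights, either number range alone, and each library left out in turn. Python 3.11.15, numpy 2.4.6, pandas 2.3.3, scipy 1.17.1 and matplotlib 3.10.9 were used.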

Additional observations from a re-analysis of the deposited data

Results flagged for a closer look

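Within each group the highest or lowest library was compared with its nearest neighbour, as the gap divided by the range of the group, in 86 groups of libraries (43 members in each of the Trained and Untrained groups). In 13 groups a library stood far from the others. Chance alone gives this in about 1 in 20 groups when the groups are independent. The 86 groups share the same 11 libraries, so the count of 13 cannot be set against that rate. The share over all genes was not counted.

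Of these, 8 were the value of Untrained 10 above the other Untrained libraries. The gap took 0.959 of the range for Lrrc4c, 0.793 for Dlgap1, 0.790 for Lrrtm4, 0.779 for Dlg4, 0.776 for Lrrc4b, 0.748 for Nrxn2, 0.733 for Lrrc4 and 0.729 for Cadm3. In Dlgap1, which binds MAGUK scaffolds, Untrained 10 was at 130.4 FPKM and the next Untrained library at 105 FPKM.

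Trained 14 stood apart as the lowest Trained library for Nrxn2 (0.658 of the Trained range) and the highest for Lrrtm2 (0.646) and Cadm2 (0.635). Cadm2 was at 41.4 FPKM in Trained 14 and at 28.6 FPKM in the next Trained library. Trained 2 was the highest Trained library for Lrrtm3 (0.816), and Untrained 6 the lowest Untrained library for Ptprf (0.744).

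The training difference of Shank1 was lower in males than in females by -0.32 on the log2 scale (interaction in limma, unadjusted p = 0.030, adjusted p = 0.959), and by -0.13 without Untrained 10 (unadjusted p = 0.196).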

How the results depend on the processing

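No member passed an adjusted p under 0.05 for training in any alternative that was run. The 5 members lower in Trained libraries at an unadjusted p under 0.05 became 8 with number range as a covariate (Gphn, Dlg2 and Slitrk3 added), and 3 to 8 with each library left out in turn (3 without Untrained 17, 8 without Trained 14 or Untrained 6). The share of all genes moved the same way in these settings, at 5.5% with number range, 2.7% without Untrained 17, 8.28% without Trained 14 and 5.44% without Untrained 6, against 4.2%. Flrt3 and Lrrtm3 were among them in all alternatives, Shank2 in all but libraries 10 to 17 alone. Higher in Trained libraries were 0 to 1 member with each library left out (Slitrk1 without Untrained 10), 1 in libraries 1 to 6 alone (Slitrk1) and 1 in libraries 10 to 17 alone (Kalrn). Gphn passed the unadjusted threshold of limma with quantile normalization, TPM, number range as a covariate and without Untrained 5. The sign turned for Dlg4 in libraries 1 to 6 alone (0.023), and for Rac1 with quantile normalization (-0.017), TPM (-0.0011), libraries 10 to 17 alone (-0.023) and with single libraries left out (-0.032 to 0.068). The 5 members higher in males became 0 with number range added and 7 to 8 with Untrained 10 or 17 left out, and the 8 higher in libraries 10 to 17 became 0 with sex added, 0 in females only (Untrained 17 against 5 libraries) and 8 to 11 with Untrained 10 or 17 left out. No share of all genes is given for these settings of sex and number range, so the counts have no background beside them. Of the other postsynaptic density and spine genes, the 4 lower became 7 and the 0 higher became 1 with sex as a covariate. All genes moved the same way, from 4.2% to 6.43% lower and from 617 to 947 of 14936 genes higher. The cause of these changes was not tested. No paired analysis was possible because the groups share no replicate number in the labels.

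With 6 and 5 libraries, the size of a difference against the spread between mice varied by member, and none passed the adjusted threshold for training. The means differed by more than the SD of either group in Flrt3 (7.17 ± 0.701 and 8.96 ± 1.08 FPKM) and Lrrtm3 (16.5 ± 0.994 and 18.95 ± 1.14 FPKM). They differed by less in Rac1 (116 ± 7.76 and 115 ± 12.3 FPKM) and Lrrc4b (87.1 ± 4.36 and 87.7 ± 11.4 FPKM). Depth limits Homer3 most, and the estimated fragments cover counting error only.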
